A study of Mus musculus with 6 samples.

Results

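Egr1, Egr2, Egr3, Egr4, Nr4a1, Nr4a3, Arc, Npas4 and Nptx2 are activity genes, whose transcription in neurons rises when the cells fire. They were taken by symbol, as 9 of the 54658 genes listed in the count tables of the series, and 8 of the 9 passed the expression filter (all but Egr2). The tissue was nucleus accumbens, a ventral striatal region, from C57BL6 male mice aged 8 weeks. A vector made from herpes simplex virus, p1005+ in the labels, was given to all 6. In the 3 Gas5 libraries (A, B and C) it encoded Gas5, a noncoding RNA, and EGFP, and in the 3 GFP libraries it carried EGFP alone. The series concerns Gas5 in cocaine action, but no sample is labelled with cocaine. Not given in the sources used here are the interval between injection and collection, the hour of collection, the promoter in the vector and whether mice were pooled. Values of single libraries are listed below in the order A, B, C. The p-values therefore measure the spread between these samples, which may be technical.

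Calcium entry and cyclic AMP signalling after synaptic activity activate factors such as CREB and SRF, which switch on immediate-early genes without new protein synthesis. The Egr genes encode zinc finger transcription factors, the Nr4a genes encode orphan nuclear receptors, and Npas4 encodes a bHLH-PAS factor, so that these members pass the signal on to further genes. Arc and Nptx2 act at the synapse instead, Arc in the removal of AMPA receptors from the membrane and Nptx2, a secreted pentraxin, in their clustering. In the striatum, Arc, Egr and Nr4a genes are known to respond to dopamine and to glutamate from cortical axons.

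Total counts lay between 32359052 and 56081575 per library. Gas5 itself stood at 23.2 CPM ± 0.545 in the Gas5 group against 17.8 CPM ± 1.15 in the GFP group (SD, n = 3 each), where CPM is the read count divided by the library total after TMM scaling. The log2 fold change of Gas5 was 0.38 (edgeR adjusted p 0.0163), and other listed genes share 26.6% of its span. Medium spiny neuron markers, which mark the principal cells of this tissue, were all measured (12 of 12). Their summed level was 4516 to 5878 CPM in the Gas5 and 5369 to 6111 CPM in the GFP libraries, and 0 of 12 were called by edgeR, with 1 at an unadjusted p under 0.05. The cortical excitatory neuron list was lower in the Gas5 libraries. Its 11 genes summed to 188.7 to 245.7 CPM there and to 407.1 to 543.8 CPM in the GFP libraries, and 7 of its 10 tested members were called lower, including Slc17a7, the gene of a vesicular glutamate transporter (24.5 CPM ± 18.4 with Gas5, 206 CPM ± 47.9 with EGFP alone, SD, n = 3 each). Slc17a7 was the largest single part of the summed level in the GFP libraries. Fezf2, Cux2 and Lamp5 were tested but not called, with log2 fold changes of -1.33, -0.01 and 0.10 (edgeR adjusted p 0.0533, 0.960 and 0.778). Neurod1, also on that list, was listed at 0 in each library. The lower level of the cortical list is a property of the libraries that stands beside each result on the activity genes.

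Egr1, Nr4a1 and Arc were lower in the Gas5 libraries than in the GFP libraries, by 1.59-fold, 1.68-fold and 1.62-fold. These 3 were the members called of 8 tested, where called means an adjusted p under 0.05 in the quasi-likelihood test of edgeR over 17563 genes. Of all tested genes, 3.96% were called lower and 1.48% higher. No member was called higher, and none had a positive log2 fold change by edgeR, DESeq2, limma-voom or the exact test. Without adjustment 7 of the 8 had a p under 0.05, the exception being Nr4a3. Among the 17563 tested genes, 1967 were lower and 1799 higher at an unadjusted p under 0.05 by edgeR. A log2 fold change under 0 was found in 45.76% of all tested genes. The median log2 fold change of the 8 was -0.59, beside 0.02 for all tested genes. In 5 of the 8 (Egr1, Egr4, Nr4a1, Arc and Npas4) every Gas5 library lay below every GFP library, as did 13.9% of all tested genes. For each of these 5 the exact permutation test over the libraries gave p = 0.1, 2-sided, the smallest that 20 splits of 3 against 3 allow.

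**Figure D1:**
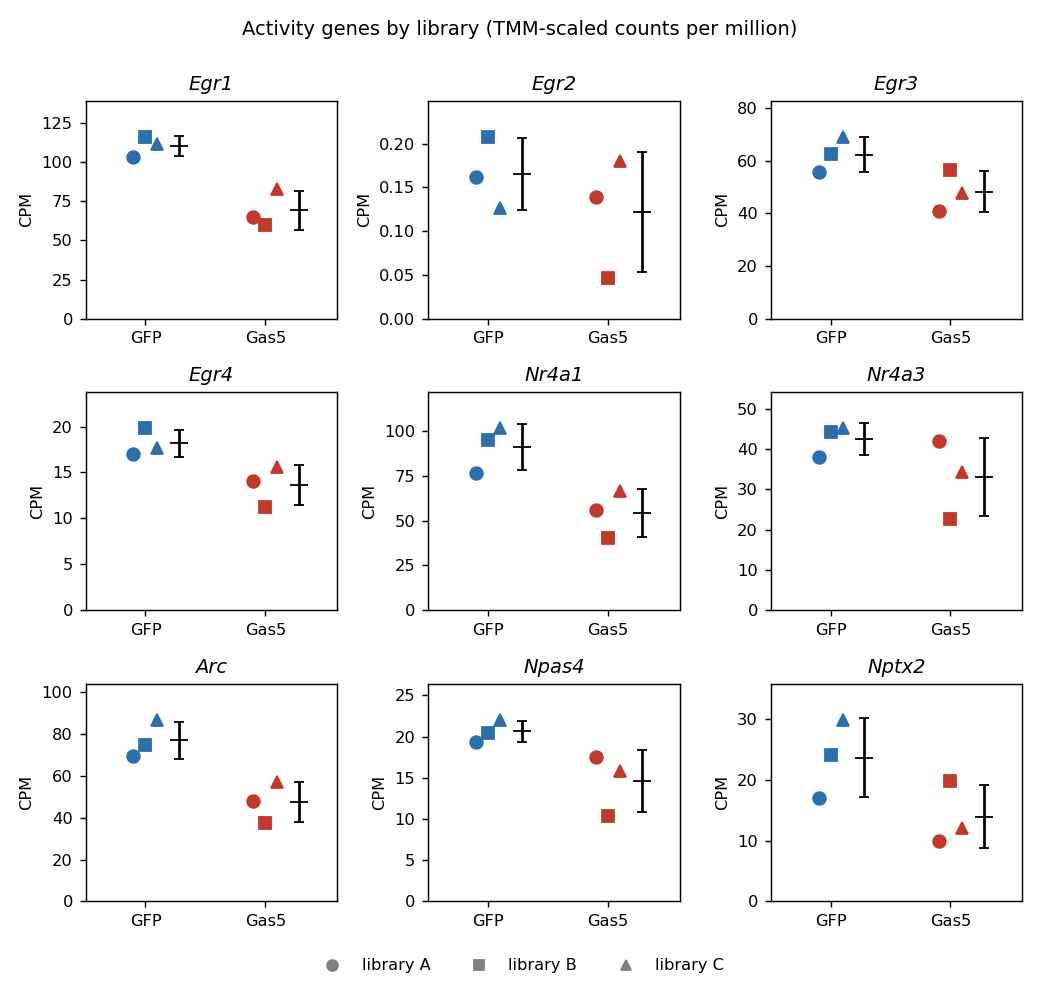
TMM-scaled CPM (vertical axes from 0) of the 9 activity genes in the 3 GFP (blue) and 3 Gas5 (red) libraries, with the group mean and SD in black. Egr1 lies between 59.6 and 83.1 in the Gas5 libraries, below the GFP range of 104 to 116, whereas Egr3, Nr4a3 and Nptx2 overlap between the groups and Egr2 stays under 0.21 CPM.

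The member counts depend on a few libraries and on the dispersion estimate, since robust dispersion left 1 call (Egr1). In the whole table robust dispersion called 692 genes lower, beside 695 in the main test. When GFP B or GFP C was left out, the quasi-likelihood test called 0 of 8, with 6 and 4 lower at an unadjusted p under 0.05, and 111 and 101 lower genes in the whole table. Leaving out Gas5 A left 1 call (Egr1), with 499 lower genes in the whole table. Leaving out Gas5 B gave 5 (Egr1, Egr3, Nr4a1, Arc and Nptx2), with 593 lower genes in the whole table.

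Nr4a1, also known as Nur77, encodes a nuclear receptor that binds DNA as a monomer or with retinoid X receptors. It measured 55.9, 40.1 and 66.6 CPM with the Gas5 vector, against 76.7, 94.9 and 101.5 CPM with EGFP alone. The groups did not overlap, and Gas5 B was the lowest library. The group means were 54.2 CPM ± 13.3 and 91.1 CPM ± 12.9 (SD, n = 3 each), a log2 fold change of -0.75 (standard error 0.17, edgeR adjusted p 0.0436). The adjusted p rose to 0.0757 when Gas5 A was left out, to 0.159 for GFP B and to 0.167 for GFP C, and with robust dispersion it was 0.099. Nr4a1 spans 20527 bases on the plus strand of chromosome 15 (GRCm38, 101254269 to 101274795), of which 3509 are annotated as exon.

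Nr4a3, the Nor1 receptor, had a smaller difference. It measured 42.1, 22.7 and 34.3 CPM with the Gas5 vector, against 37.9, 44.3 and 45.1 CPM with EGFP alone. Gas5 A lay inside the GFP range and Gas5 B far below it. The means of 33.0 CPM ± 9.73 and 42.5 CPM ± 3.95 (SD, n = 3 each) gave a log2 fold change of -0.36, standard error 0.19, with an edgeR adjusted p of 0.311. The value was -0.58 without Gas5 A and -0.15 without Gas5 B. The gene lies on the plus strand of chromosome 4 (48045153 to 48086447), and 5987 of its 41295 bases are exon. The family member Nr4a2, which is not one of the 9, was 11.6-fold lower, at 1.72 CPM ± 0.619 against 20.1 CPM ± 7.72 (SD, n = 3 each).

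RefSeq promoter windows of GRCm38.p6 were given for 5 of the 9 members (Egr2, Egr4, Nr4a1, Nr4a3 and Npas4). The 250 bases before each start site were searched on both strands for the short CREB site TGACG, the full site TGACGTCA, which contains it, the CArG box bound by SRF, the Egr site GCGNGGGCG and the Nr4a site AAAGGTCA. Both Nr4a windows held 4 copies of TGACG, and 3.9% of 32817 promoter windows of this length held 2 or more, 17.7% at least 1. Nr4a1 also held 1 match to GCGNGGGCG, 60 bases before the start, which 4.7% of windows hold. The windows were chosen for display after the matches were seen, because Nr4a1 was among the called members and its relative Nr4a3 was not. A relation between site number and the calls was not tested, nor was the difference between the fold changes of these genes. Capitals mark TGACG or its reverse complement CGTCA, and each run reads 5′ to 3′ on the strand of the gene. The Nr4a1 window is chr15:101266596-101266845 on the plus strand, ending at the base before the start site. For Nr4a3 only the part outside annotated exons is printed, chr4:48045055-48045152 on the plus strand, with 3 of its 4 matches.
Nr4a1: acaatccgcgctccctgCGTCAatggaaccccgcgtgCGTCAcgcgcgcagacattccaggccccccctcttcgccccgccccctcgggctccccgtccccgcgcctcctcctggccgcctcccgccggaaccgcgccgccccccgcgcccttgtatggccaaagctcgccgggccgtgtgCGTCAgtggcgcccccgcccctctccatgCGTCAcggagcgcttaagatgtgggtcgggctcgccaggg
Nr4a3: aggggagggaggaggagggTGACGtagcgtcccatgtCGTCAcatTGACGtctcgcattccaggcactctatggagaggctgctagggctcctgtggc

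Npas4 encodes a factor that responds to calcium entry and pairs with ARNT proteins. Its levels were 17.5, 10.4 and 15.9 CPM with the Gas5 vector, against 19.4, 20.5 and 22.04 CPM with EGFP alone. All Gas5 libraries were below the GFP libraries, with Gas5 A close to GFP A and Gas5 B the lowest. The means of 14.6 CPM ± 3.76 and 20.6 CPM ± 1.32 (SD, n = 3 each) differed by -0.50 on the log2 scale, standard error 0.17, with an edgeR adjusted p of 0.126. The difference was -0.30 without Gas5 B and -0.66 without Gas5 A. DESeq2 and the exact test gave adjusted p of 0.0288 and 0.045, limma-voom 0.112. Npas4 lies on the minus strand of chromosome 19 (4984355 to 4989971 in the count tables). Its promoter window held 2 copies of TGACG, 179 and 169 bases before the start site, and is not printed because all 250 bases are annotated as exon.

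Egr4, whose product shares the zinc finger domain of the family, measured 14.01, 11.2 and 15.5 CPM with the Gas5 vector, against 17.0, 19.8 and 17.7 CPM with EGFP alone. The groups did not overlap. Group means were 13.6 CPM ± 2.18 and 18.2 CPM ± 1.44 (SD, n = 3 each), a log2 fold change of -0.42 (standard error 0.12, edgeR adjusted p 0.0771). DESeq2 and the exact test of edgeR put its adjusted p at 0.0183 and 0.0165, and limma-voom at 0.0739. With 1 library left out the adjusted p ran from 0.0482 (Gas5 C) to 0.256 (GFP B), and the difference was -0.30 without Gas5 B. Egr4 is the shortest member, 2469 bases on the minus strand of chromosome 6 (85511121 to 85513589).

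Egr2, also called Krox20 and best known from myelinating Schwann cells and hindbrain patterning, was close to the limit of counting. It had 6, 2 and 7 raw counts with the Gas5 vector, against 9, 8 and 4 with EGFP alone. The groups overlapped, and the gene did not enter the test. The summed counts were 15 (95% exact Poisson interval 8.4 to 24.7) and 21 (13 to 32.1). Their ratio after scaling was 0.722 (95% exact interval 0.346 to 1.47), and these intervals cover counting error only. A difference was not detectable at this depth. Egr2 spans 67535475 to 67542188 on the plus strand of chromosome 10, and no other gene, listed in the files or annotated in GENCODE M21, overlaps it (0 of each).

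Of the 5 members searched, Egr2 had a CArG box before a RefSeq start site and the other 4 had none. A box stood in 4 of the 5 Egr2 windows, but it was not the same box in all of them. The window chr10:67537316-67537565 held a box of its own. The windows that start at 67537619, 67537620 and 67537680 overlap and share another. A CArG box stood in 1.47% of all windows. Egr1, Egr3, Arc and Nptx2 were not searched. In the window chr10:67537619-67537868 on the plus strand the box lay 72 bases before the start, between 2 copies of TGACG at 111 and 55 bases. The Egr4 window chr6:85513590-85513839 on the minus strand held 2 copies of TGACG, 177 and 109 bases before the start, and no CArG box. The pair is shown to set the member near 0 beside a family member that was measured well. Capitals mark the CArG box and TGACG or CGTCA. None of the 5 members had TGACGTCA or AAAGGTCA in a window, which 1.55% and 1.34% of all windows hold.
Egr2: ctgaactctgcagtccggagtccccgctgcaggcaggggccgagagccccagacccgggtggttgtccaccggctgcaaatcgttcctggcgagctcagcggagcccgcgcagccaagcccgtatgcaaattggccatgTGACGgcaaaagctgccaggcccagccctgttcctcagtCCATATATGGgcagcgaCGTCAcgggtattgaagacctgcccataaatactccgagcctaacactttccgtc
Egr4: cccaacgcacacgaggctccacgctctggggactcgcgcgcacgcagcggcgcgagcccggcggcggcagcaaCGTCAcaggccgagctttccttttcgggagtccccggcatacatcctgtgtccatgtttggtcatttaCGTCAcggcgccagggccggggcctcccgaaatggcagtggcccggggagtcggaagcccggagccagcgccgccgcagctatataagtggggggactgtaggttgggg

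The 2 remaining transcription factor genes of the Egr family are abundant in the striatum and respond to dopamine and glutamate. Egr3 is known as a target of neuregulin and of other Egr factors. It measured 40.8, 56.5 and 47.6 CPM with the Gas5 vector, against 55.7, 62.5 and 69.0 CPM with EGFP alone. Gas5 B lay just above GFP A, so the groups overlapped. The means of 48.3 CPM ± 7.86 and 62.4 CPM ± 6.68 (SD, n = 3 each) gave a log2 fold change of -0.37, standard error 0.12, with an edgeR adjusted p of 0.116. It was -0.49 (adjusted p 0.0375) without Gas5 B, -0.26 (0.212) without Gas5 A and -0.29 (0.333) without GFP C.

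Egr1, also known as Zif268, is widely used as a marker of recently active neurons. It measured 65.05, 59.6 and 83.1 CPM with the Gas5 vector, against 104, 116 and 111 CPM with EGFP alone. The groups were far apart relative to their spread, at 69.2 CPM ± 12.3 and 110.4 CPM ± 6.27 (SD, n = 3 each). The difference was -0.67 on the log2 scale (standard error 0.11) and the edgeR adjusted p 0.0163, the smallest among the members and rank 259 of all tested genes. Leaving out GFP B or GFP C raised the adjusted p to 0.0785 and 0.0797, with log2 fold changes of -0.64 and -0.67. Egr1 lies at 34859823 to 34864984 on the plus strand of chromosome 18, and Egr3 at 70077203 to 70082614 on the plus strand of chromosome 14.

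Arc, the cytoskeleton-associated protein whose mRNA travels to active dendrites, measured 48.0, 37.6 and 56.9 CPM with the Gas5 vector, against 69.5, 74.5 and 86.7 CPM with EGFP alone. Every Gas5 library was below every GFP library. The means of 47.5 CPM ± 9.63 and 76.9 CPM ± 8.87 (SD, n = 3 each) differed by -0.69 on the log2 scale, standard error 0.14, with an edgeR adjusted p of 0.0293. Leaving out Gas5 A, GFP B or GFP C gave adjusted p of 0.0545, 0.102 and 0.131, and robust dispersion gave 0.0611. Arc lies on the minus strand of chromosome 15 (74669083 to 74672570).

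Nptx2, also called Narp, had the most variable levels of the 8. It measured 9.90, 19.9 and 12.2 CPM with the Gas5 vector, against 17.0, 24.2 and 29.9 CPM with EGFP alone. Gas5 B lay above GFP A, so the groups overlapped. The means were 13.98 CPM ± 5.23 and 23.7 CPM ± 6.47 (SD, n = 3 each). The fitted log2 fold change of -0.75 was as large as that of Nr4a1, but its standard error was 0.27 and the edgeR adjusted p 0.149. It was -1.10 (adjusted p 0.038) without Gas5 B, -0.56 (0.295) without Gas5 A and -0.56 (0.4) without GFP C. Nptx2 spans 144545902 to 144557478 on the plus strand of chromosome 5.

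**Figure D2:**
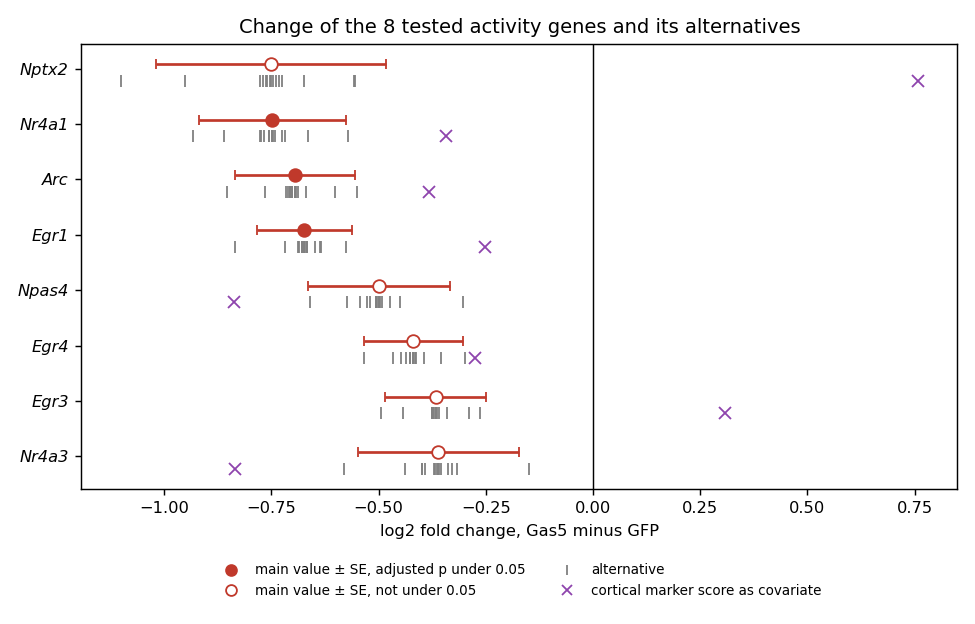
Log2 fold change (Gas5 minus GFP, horizontal axis) of the 8 tested members with the standard error, filled where the adjusted p is under 0.05, with the alternatives as grey ticks and the fit with the cortical marker score as a cross. All grey ticks lie below 0, while the crosses of Egr3 and Nptx2 lie at 0.31 and 0.76.

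The cortical marker score, the mean log2 CPM of the 11 cortical genes, was 1.90, 2.51 and 2.67 with the Gas5 vector, against 3.51, 3.97 and 3.99 with EGFP alone. It does not overlap between the groups, so the group and the score cannot be told apart. With the score as a covariate edgeR called 0 of the 8 members, with 0 at an unadjusted p under 0.05. The same fit called 0 lower and 0 higher in the whole table, with 263 lower and 161 higher at an unadjusted p under 0.05. The absence of calls is therefore not particular to the members. DESeq2 and limma-voom were not run with the score. The log2 fold changes of the 6 other members then ran from -0.84 (Npas4) to -0.25 (Egr1), and those of Egr3 and Nptx2 turned to 0.31 and 0.76, with standard errors from 0.23 to 0.57 for the 8 members and adjusted p of 0.998 for each. In bulk tissue, fewer cells of a type and less RNA per cell cannot be told apart. The other marker lists each had at most 1 gene called in a direction. Interneuron markers had 1 of 8 lower and 1 higher (summed level 968.8 to 1115 CPM in the Gas5 and 895.4 to 974 CPM in the GFP libraries). Astrocyte markers had 1 of 6 called higher (Aqp4), 4 of 6 higher at an unadjusted p under 0.05 and a median log2 fold change of 0.31, while their summed level, most of it from Slc1a2, was not higher (2651 to 3191 CPM against 3027 to 3243 CPM, with Gfap listed at 0). Microglia markers had 0 of 6 called by edgeR, with 4 at an unadjusted p under 0.05 (222.8 to 242.3 CPM against 189.1 to 210.8 CPM, with P2ry12 and Itgam listed at 0), and oligodendrocyte markers 0 of 6, with 4 at an unadjusted p under 0.05 (1543 to 1965 CPM against 2004 to 2177 CPM). Endothelial markers had 1 of 5 lower (Flt1), at 189.2 to 201.7 CPM against 211.9 to 223.8 CPM, and ependymal markers 1 of 2 tested higher (Rsph1), at 5.83 to 6.59 CPM against 4.09 to 4.52 CPM. The summed levels of these 2 lists and of the microglia and oligodendrocyte lists did not overlap between the groups. Their part in the member changes was not tested.

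Within the groups the members did not all vary together. Egr1, Egr4, Nr4a1, Nr4a3, Arc and Npas4 were each lowest of the Gas5 group in Gas5 B, by 0.20 to 0.49 below their group mean of log2 CPM. Egr3 and Nptx2 were highest in that library, by 0.24 and 0.55 above the mean. In Gas5 A Nptx2 (-0.42) and Egr3 (-0.23) were lowest, and Nr4a3 (0.39) and Npas4 (0.29) highest. Between them lay Egr1 at -0.08 and Arc, Egr4 and Nr4a1 at 0.03, 0.05 and 0.07. In the GFP group all 8 members were below the mean in GFP A, from -0.08 (Npas4) to -0.43 (Nptx2).

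**Figure D3:**
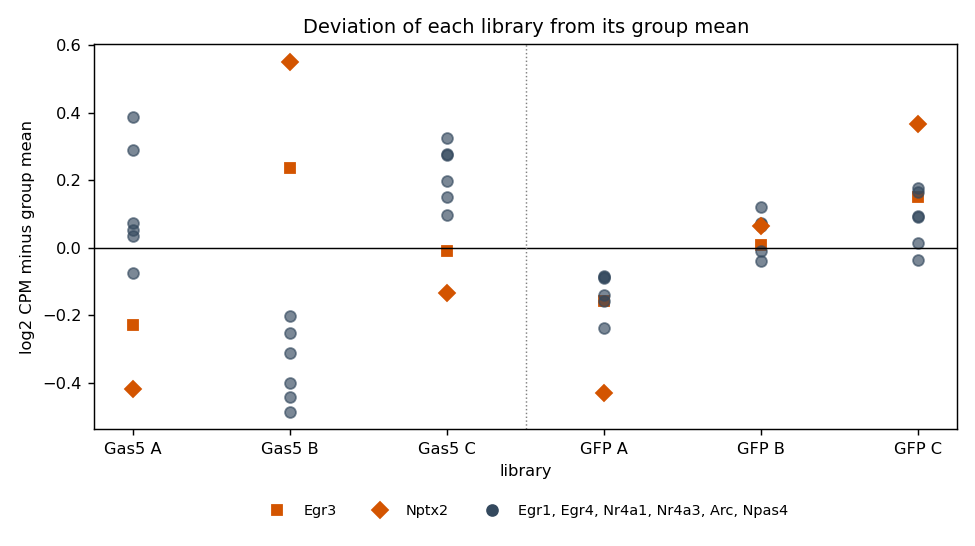
Log2 CPM of the 8 tested members minus the mean of their group (vertical axis) in each library. In Gas5 B Egr3 and Nptx2 (orange) lie above 0 and the other 6 members (dark) below, and in GFP A all 8 lie below 0.

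Over the 6 libraries the deviations of Egr3 and Nptx2 had a Pearson r of 0.98. The 15 pairs among the other 6 members all had a positive r, from 0.48 to 0.98 with a median of 0.81. The 12 pairs across the 2 sets all had a negative r, from -0.65 to -0.11. For log2 CPM itself, which keeps the difference between the groups, the same 12 pairs had r from 0.11 to 0.66. These values describe 6 libraries that share scaling and depth, and the 2 sets were formed after the values were seen. The pairs Nr4a3 with Npas4 (0.98) and Nr4a1 with Arc (0.97) were the closest among the 6. Gas5 B had a medium spiny neuron marker mean of 7.91 log2 CPM, beside 7.67 in Gas5 A and 7.92 in Gas5 C, and an interneuron mean of 4.64, beside 4.28 and 4.63. The astrocyte mean (6.24, 6.02 and 6.19 in the order A, B, C) and the microglia mean (3.42, 3.29 and 3.32) were lowest in Gas5 B, and their part in the pattern was not tested. For each of the 8 members the SD was a larger percent of the mean in the Gas5 group (37.4% at most) than in the GFP group (27.3% at most), a difference that was not tested.

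The genes with the nearest pattern to the mean standardized log2 CPM of the members were Adamts2 (r = 0.9986 over the 6 libraries), Trim44 (0.9965), Tcf4 (0.9964), Tmem170b (0.9938) and Pter (0.9931), from 11965 genes searched, of which 708 had an r over 0.9. Their log2 fold changes ranged from -0.91 (Adamts2) to -0.09 (Trim44). By deviations from the group means the nearest were Nov (0.9994), Efr3a (0.999), Tcf4 (0.9984), Bmper (0.9946) and Timm9 (0.9939), with 163 of 11965 over 0.9. Tcf4, a bHLH transcription factor gene, was named by both measures, and its log2 fold change was -0.31 (edgeR adjusted p 0.0236).

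Levels were compared between members per kilobase of gene span, because the counts cover introns. In the GFP group Arc (22 CPM per kilobase ± 2.54, SD, n = 3) and Egr1 (21.4 ± 1.22) led, and their ranges overlapped. Egr3 followed at 11.5 ± 1.23 and Egr4 at 7.36 ± 0.581, each separate from its neighbours in the order. Nr4a1 (4.44 ± 0.627) and Npas4 (3.67 ± 0.235) overlapped. Nptx2 stood at 2.05 ± 0.559, Nr4a3 at 1.03 ± 0.0956 and Egr2 at 0.0246 ± 0.00609 CPM per kilobase. The order was the same in the Gas5 group, where Arc and Egr1 were at 13.6 ± 2.76 and 13.4 ± 2.38 CPM per kilobase and Nptx2 and Nr4a3 also overlapped. Per kilobase of annotated exon Nr4a1 moved to the first place in the GFP group, at 25.9 ± 3.67 CPM per kilobase, and overlapped Arc (25.2 ± 2.9), whose range overlapped that of Egr1 (24.6 ± 1.4). The position of the Nr4a genes, with long introns, therefore depends on the length used, while Egr2 was last by both.

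**Figure D4:**
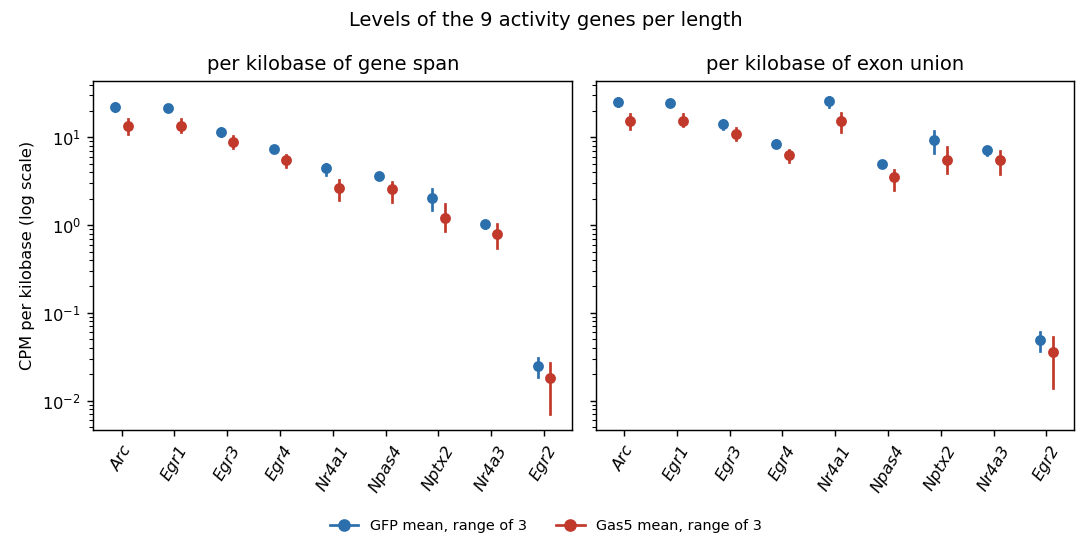
Level of the 9 members in CPM per kilobase (log scale) with the mean and the range of 3 libraries in the GFP (blue) and Gas5 (red) groups, by gene span on the left and by annotated exon on the right. Arc and Egr1 lead by span, Nr4a1 joins them by exon, and Egr2 lies far below the rest in both panels.

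Other genes that neuronal activity induces were listed as well, 42 in all, and 40 were tested. Of these, 5 were called lower and 0 higher by edgeR, beside 3.96% and 1.48% of all tested genes. DESeq2 and limma-voom also called 0 higher, and the exact test 1. At an unadjusted p under 0.05 by edgeR, 14 were lower and 3 higher. Their median log2 fold change was -0.19, beside 0.02 for all genes. Bdnf, a neurotrophin, was 7.81-fold lower (1.12 CPM ± 0.234 against 8.85 CPM ± 3.08, SD, n = 3 each), and Nrn1, a neuritin gene of which 29.9% of the span is shared with other listed genes, 7.12-fold lower. Pcsk1, a prohormone convertase gene, was 1.91-fold lower, from 30.9 CPM ± 2.79 to 16.1 CPM ± 3.03 (SD, n = 3 each), with an edgeR adjusted p of 0.010. Nr4a2, described above, and Homer1, a postsynaptic scaffold gene at 1.28-fold lower, were also called. Counts over the whole gene span do not separate the transcript forms of Homer1. Fos had 6.96 CPM ± 2.94 against 9.17 CPM ± 1.22 (SD, n = 3 each), a log2 fold change of -0.39 (edgeR adjusted p 0.457). Junb and Jun had log2 fold changes of -0.13 and -0.01 and adjusted p of 0.530 and 0.974. Jund and Csrnp1 were listed at 0, and 55.1% and 100% of their spans are shared with other listed genes.

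Regulators upstream of the activity genes showed little difference. Of 38 tested, among them CREB coactivators, MAP kinases, calcium channels and glutamate receptors, 1 was called lower and 0 higher by edgeR, with 4 and 2 at an unadjusted p under 0.05, and DESeq2, limma-voom and the exact test also called 0 higher. The median log2 fold change was -0.02, beside 0.02 for all tested genes, of which 3.96% were called lower and 1.48% higher. The gene called was Mef2c, a MADS-box factor gene, 1.34-fold lower at 198 CPM ± 19.1 against 265 CPM ± 15.5 (SD, n = 3 each), with an edgeR adjusted p of 0.0222. Map2k1, Elk1 and Rps6ka3 followed with log2 fold changes of 0.19, 0.15 and -0.18 and adjusted p of 0.0840, 0.135 and 0.192. For Elk1, 51.6% of the span is shared. Creb1 and Drd1 had log2 fold changes of 0.12 and 0.03 and adjusted p of 0.282 and 0.862. Srf was listed at 0, and its whole span (100%) lies within other listed genes.

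Among the binding partners of the member proteins, the pentraxin relatives of Nptx2 were lower. Nptx1, which forms mixed complexes with Nptx2, was 2.67-fold lower (26.5 CPM ± 9.87 against 70.6 CPM ± 13.9, SD, n = 3 each, edgeR adjusted p 0.0229). Nptxr, the membrane-bound pentraxin receptor gene, was 2.18-fold lower (34.2 CPM ± 2.53 against 74.9 CPM ± 9.03, SD, n = 3 each, edgeR adjusted p 0.00354), although other listed genes share 82% of its span. Nab1, which encodes a corepressor of Egr factors, was 1.38-fold lower (26.3 CPM ± 1.94 against 36.2 CPM ± 1.59, SD, n = 3 each, edgeR adjusted p 0.0104), whereas Nab2, the other corepressor gene, differed by -0.07 on the log2 scale (adjusted p 0.650). These were the 3 called lower of 18 tested by edgeR, with 0 higher, beside 3.96% and 1.48% of all tested genes. Limma-voom also called 0 higher, DESeq2 1 and the exact test 1. At an unadjusted p under 0.05 by edgeR, 5 were lower and 1 higher. Arnt2, a partner of Npas4, differed by 0.18 on the log2 scale (edgeR adjusted p 0.0686). The median of the list was -0.04. Without GFP C the lower calls in the 3 lists were 3, 0 and 1, and without GFP B 3, 0 and 2. The Gas5 libraries to which these counts refer also had the lower cortical scores. With the score as a covariate edgeR called 0 lower and 0 higher in each list, as in the whole table. At an unadjusted p under 0.05 that fit had 0, 0 and 1 lower in the lists, and 263 lower in the whole table.

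**Figure D5:**
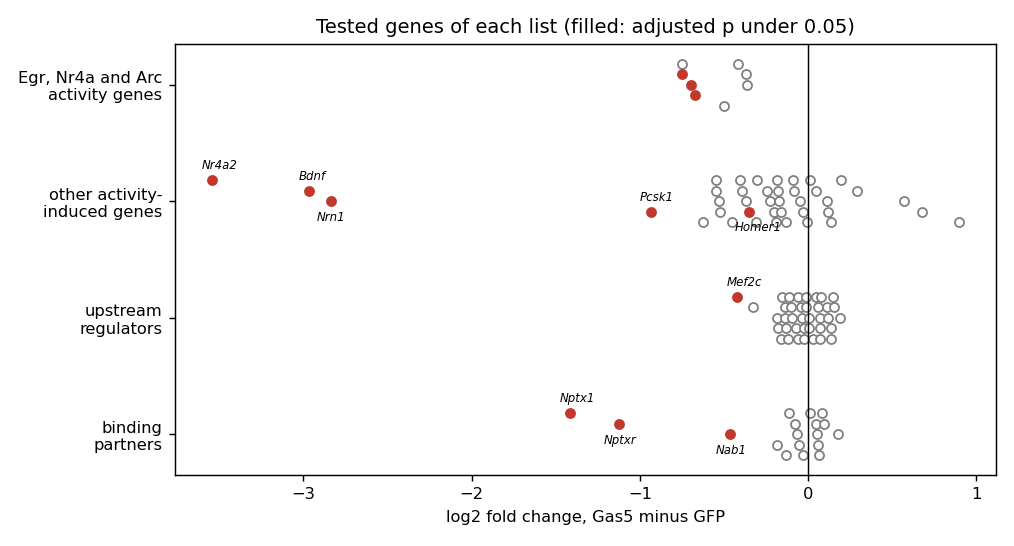
Log2 fold change (Gas5 minus GFP, horizontal axis) of each tested gene among the members, the other activity-induced genes, the upstream regulators and the binding partners, filled and labelled (members unlabelled) where the adjusted p is under 0.05. All 8 members lie below 0, and the largest decreases in the picture are those of Nr4a2, Bdnf and Nrn1.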

How the data were processed

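Per the labels' protocols, total RNA was depleted of ribosomal RNA and made into libraries with a strand-marking kit. The authors deposited raw counts per gene, 1 table per library. The submitters' processing notes name STAR 2.7.0, featureCounts 1.5.0-p3 and GRCm38.p6. The length column equals the gene span, so introns were counted. Reads in overlaps of listed genes appear to be uncounted (genes nested in others are at 0), but none of the 9 members overlaps a listed gene. Coordinates of 8 of the 9 match GENCODE M21 (not Npas4).

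Tests were run in edgeR 4.0.16 under R 4.3.3: default expression filter, TMM scaling, quasi-likelihood F-test of Gas5 minus GFP in all 6 libraries, 2-sided, with Benjamini-Hochberg adjustment over 17563 genes. Standard errors are the log2 fold change divided by the root of F. Logarithms of CPM use a pseudocount of 0.5. DESeq2 1.42.0 and limma-voom (limma 3.58.1) were alternatives. On simulated counts of 17563 genes for this comparison, the edgeR test recovered 72% of genes changed by 1 and 40% of those changed by 0.5 on the log2 scale. All library pairs of a group differed beyond sampling noise (chi-square per degree of freedom 5.04 to 25.4). Members, lists and tests were chosen with earlier results of these data known. Named genes are the members, the 4 of smallest p in each list and the 5 nearest in pattern, and others were named after their values were seen.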

Additional observations from a re-analysis of the deposited data

How the results depend on the processing

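Across 128 refits of the 8 members, 98 kept direction and side of the threshold, 13 lost and 15 gained the call, and 2 reversed: Egr3 (0.307) and Nptx2 (0.757) once the cortical marker score entered the fit. Members called lower numbered 3 in the main test and with RLE or upper quartile scaling, a filter of 1 CPM and limma-voom, 7 unfiltered, 6 each by DESeq2 and by the exact test, 1 with robust dispersion, 0 with the score, 0 at a threshold of 0.01 and 0 to 5 leaving out 1 library. For the other activity-induced genes (5) the counts were 11 unfiltered, 11 by DESeq2, 11 by the exact test and 11 at a threshold of 0.1, 3 at 0.01, 0 with the score and 3 to 7 leaving out 1 library. Upstream regulators (1) gave 0 with the score, 0 at 0.01 and 0 to 2 leaving out 1 library, and binding partners (3) gave 0, 1 and 1 to 3. Over all genes, 695 lower and 260 higher became 111 and 4 (GFP B left out), 101 and 6 (GFP C left out), 499 and 111 (Gas5 A left out), 993 and 643 unfiltered, 996 and 495 by DESeq2, 1093 and 681 by the exact test, 1086 and 661 at 0.1, 97 and 3 at 0.01, and 0 and 0 with the score. The score cannot be told apart from the group, and the cause of the other shifts was not tested.

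The letters A, B and C do not pair the libraries by any label, and deviations of same-lettered libraries correlated at 0.164, 0.179 and -0.0936. Gas5 A and Gas5 B correlated best with their own letter and Gas5 C did not. With the letter as a replicate block 5 members (Egr1, Egr3, Nr4a1, Arc and Nptx2), 9 other activity-induced genes and 928 lower and 510 higher genes in all were called. Egr2 had too few counts for a test, and the other 8 members had at least 427 counts in each library.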

Other observations

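Ratios between members within a library need no scaling between libraries. Of the 28 ratios of raw counts between the 8 tested members, 23 overlapped between the groups. Egr1 and Arc were among them, with an Egr1 count over Arc count of 1.36, 1.58 and 1.46 with the Gas5 vector, against 1.49, 1.56 and 1.28 with EGFP alone. The 5 ratios whose groups did not overlap all set Egr4 or Nr4a3 against Egr1, Nr4a1 or Arc. Nr4a1 over Nr4a3 was 1.33, 1.77 and 1.94 in the Gas5 and 2.02, 2.14 and 2.25 in the GFP libraries. Egr1 over Egr4 was 4.64, 5.30 and 5.35 against 6.08, 5.87 and 6.30. Egr4 over Arc (means 0.288 and 0.238), Egr4 over Nr4a1 (0.255 and 0.202) and Nr4a3 over Arc (0.694 and 0.554) were higher in the Gas5 group. No test was run on these ratios, which share genes and are not independent. Full separation of 3 against 3 libraries, in either direction, makes up 0.1 of the 20 possible splits. Egr4 and Nr4a3 had smaller main log2 fold changes (-0.42 and -0.36) than Egr1, Nr4a1 and Arc (-0.67, -0.75 and -0.69). Egr3, at -0.37, was in none of the 5 ratios.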
